A study of Saccharomyces cerevisiae with 7 samples.

Results

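Lariats of 5 yeast genes that encode parts of the transcription machinery were followed in strains with and without mutations in the splicing factor Prp8. The genes are RPO26 (YPR187W), TFC3 (YAL001C), TAF14 (YPL129W), SRB2 (YHR041C) and ARP9 (YMR033W). They were chosen by name for their function and not by a cut on their values, but with earlier results of these data known. All 5 were present. Each has 1 annotated intron, so they account for 5 of the 280 annotated introns, which lie in 270 genes. Of the 174421 deposited pairs of a 5′ splice site and a branch point, 145 lie on the strand of these introns and carry either their annotated 5′ splice site or their annotated branch point within 2 nt.

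The study sequenced lariats from 5 strains of Saccharomyces cerevisiae grown at 30C in rich media. Every strain was mating type a, his3 leu2 ura3 lys2, had the chromosomal PRP8 replaced (prp8D::LYS2) and DBR1 disrupted (dbr1::Kan), and carried its only PRP8 copy on the plasmid pRS313. The plasmid copy was prp8-V1860N, prp8-V1860D, prp8-N1869D or prp8-V1870N in the mutants and PRP8-WT in the comparison strain. The loss of DBR1, the debranching enzyme, is therefore shared by mutants and PRP8-WT, and no strain with DBR1 was analysed here. Ribosomal RNA was removed from total RNA, and RNase R then digested linear molecules, so that circles and lariats were enriched. Each strain has 1 library, except that prp8-N1869D has a second sample, sequenced as 2 technical libraries that were summed and counted as 1 sample. No other strain has a replicate, so only the pair of prp8-N1869D samples gives a spread, and no test between strains was made. Every difference outside prp8-N1869D is one between 2 libraries. Intervals are exact 95% Clopper-Pearson intervals, and they cover counting error alone.

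A gene is read into RNA by RNA polymerases I, II and III together with factors that find the promoter, relay regulatory signals and move nucleosomes. RPO26 encodes Rpb6, a subunit shared by RNA polymerases I, II and III. TFC3 encodes the largest subunit of TFIIIC, which binds tRNA gene promoters for RNA polymerase III. TAF14 encodes a protein found in the general factors TFIID and TFIIF and in chromatin remodelling complexes. SRB2 encodes Med20, a subunit of the Mediator head, and ARP9 encodes an actin-related protein of the remodelling complexes SWI/SNF and RSC. When an intron is removed, its first base is joined to an adenosine near its end, the branch point, which makes a lariat. A read that crosses this joint names both the 5′ splice site and the branch point that were used. Prp8 lies at the heart of the spliceosome, and the mutated residues belong to its RNase H domain.

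The introns themselves are shown because every measurement below is a position in them. They are printed 5′ to 3′ on the strand of the gene from the RefSeq sequence of build R64, with the first 6 bases, the 7 bases around the branch point and the last 2 bases in capitals.
RPO26 intron, chrXVI:911277-911352, plus strand: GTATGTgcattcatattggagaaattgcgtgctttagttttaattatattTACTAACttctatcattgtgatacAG
TFC3 intron, chrI:151007-151096, minus strand: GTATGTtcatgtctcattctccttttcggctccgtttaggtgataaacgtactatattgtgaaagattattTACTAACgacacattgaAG
TAF14 intron, chrXVI:305307-305411, plus strand: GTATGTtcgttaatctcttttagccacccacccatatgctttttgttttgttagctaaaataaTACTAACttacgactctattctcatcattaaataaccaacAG
SRB2 intron, chrVIII:189750-189850, minus strand: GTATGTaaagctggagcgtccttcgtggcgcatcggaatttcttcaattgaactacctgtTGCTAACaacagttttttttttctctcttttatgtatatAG
ARP9 intron, chrXIII:337818-337903, plus strand: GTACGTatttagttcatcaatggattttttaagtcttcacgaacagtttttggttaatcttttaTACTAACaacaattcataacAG

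All 5 introns interrupt the coding sequence close to the start codon, after 20 coding bases in RPO26, 70 in TFC3, 9 in TAF14, 14 in SRB2 and 30 in ARP9. They are short, at 76 nt in RPO26, 90 in TFC3, 105 in TAF14, 101 in SRB2 and 86 in ARP9. The lariat loop, counted from the first base of the intron to the branch point, is 56 nt in RPO26, 77 in TFC3, 69 in TAF14, 66 in SRB2 and 70 in ARP9. The branch point lies 13 nt from the end of the intron in TFC3, 16 in ARP9, 20 in RPO26, 35 in SRB2 and 36 in TAF14. Read at the annotated positions on the strand of the intron, the first 6 bases are GTATGT in RPO26, TFC3, TAF14 and SRB2, as in 217 of 280 introns (77.5%). ARP9 opens with GTACGT, as do 24 of 280 (8.57%). The 7 bases around the branch point are TACTAAC in RPO26, TFC3, TAF14 and ARP9 and in 230 of 280 introns (82.1%). SRB2 has TGCTAAC, which is at the branch of 3 of 280 introns (1.07%), the other two being the first introns of RPL7A and RPL7B.

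Samples held between 1222720 and 3517283 lariat reads, and between 993122 and 3042633 of these fell on annotated introns. A level is given here as the annotated share, the reads at the annotated 5′ splice site and within 2 nt of the annotated branch point, per 1000000 annotated reads of the sample. Each read crosses 1 joint, so the share was not divided by length. Shares in a sample sum to a fixed total, so the share of 1 intron also depends on all others. The introns of ribosomal protein genes took 66.8% of annotated reads for prp8-V1860N, 65.7% for prp8-V1860D, 59.4% for the first prp8-N1869D sample, 55.2% for its second and 62.0% for prp8-V1870N, against 67.5% for PRP8-WT. Their part in the results below was not tested, but values over other denominators are given where they change a call.

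The 5 genes differed widely in level and kept the same order in all 6 samples, with TAF14 first, then TFC3, ARP9, RPO26 and SRB2, and with intervals apart between neighbours. In PRP8-WT the TAF14 intron ranked 33 among the 280 introns, TFC3 142, ARP9 181, RPO26 194 and SRB2 212. Over all annotated reads, SRB2 stayed within 1.24-fold of PRP8-WT in every mutant but prp8-V1860D. The shares of RPO26, TFC3, TAF14 and ARP9 were higher than in PRP8-WT in both prp8-N1869D samples and in prp8-V1870N. Those higher shares kept their direction over all lariat reads, over introns outside ribosomal protein genes and with TMM or DESeq2 factors. Over short introns outside ribosomal protein genes alone, which include the 5 genes, some log2 ratios changed sign. There the ratio turned to −0.12 for TAF14 in the first prp8-N1869D sample, to −0.05 for ARP9 in the second, and to −0.03 for RPO26 and −0.35 for ARP9 in prp8-V1870N. Over that denominator smaller positive ratios also turned, to −0.04 for TAF14 and −0.17 for RPO26 in prp8-V1860N. For prp8-V1860D they turned to −0.07 for TFC3 and −0.12 for ARP9. The SRB2 ratios of 0.23 and 0.08 in the first and second prp8-N1869D samples became −0.50 and −0.97 over the short introns. They were −0.09 and −0.38 over introns outside ribosomal protein genes, and also negative with TMM or DESeq2 factors.

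RPO26 had 463 annotated reads for prp8-V1860N, 422 for prp8-V1860D, 441 in the first and 633 in the second prp8-N1869D sample and 562 for prp8-V1870N, against 716 for PRP8-WT. Per 1000000 annotated reads this is 237 for prp8-V1860N, 229 for prp8-V1860D, 444 for the first prp8-N1869D sample, 573 for its second and 363 for prp8-V1870N, against 235 (218 to 253) for PRP8-WT. prp8-V1860N and prp8-V1860D thus lay within the interval of PRP8-WT, and the other 3 samples lay above it. The share was 1.89-fold and 2.43-fold that of PRP8-WT for the first and second prp8-N1869D samples and 1.54-fold for prp8-V1870N.

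TFC3 had 2940 annotated reads for prp8-V1860N, 2551 for prp8-V1860D, 2302 and 3418 for the first and second prp8-N1869D samples and 3100 for prp8-V1870N, against 3418 for PRP8-WT. The share was 1508 per 1000000 for prp8-V1860N, 1385 for prp8-V1860D, 2318 and 3091 for the first and second prp8-N1869D samples and 2000 for prp8-V1870N, against 1123 (1086 to 1162) for PRP8-WT. All 5 mutant samples were above PRP8-WT, by 1.34-fold, 1.23-fold, 2.06-fold, 2.75-fold and 1.78-fold in the order just given. TFC3 gave the highest fold of the 5 genes in either prp8-N1869D sample.

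TAF14 had the most reads, with 19116 for prp8-V1860N, 28900 for prp8-V1860D, 13483 for the first prp8-N1869D sample, 21232 for its second and 27425 for prp8-V1870N, against 27040 for PRP8-WT. The share was 9804 per 1000000 for prp8-V1860N, 15689 for prp8-V1860D, 13576 and 19203 for the first and second prp8-N1869D samples and 17692 for prp8-V1870N, against 8887 (8782 to 8993) for PRP8-WT. Every mutant sample lay above the PRP8-WT interval, prp8-V1860N by the least. The share was 1.77-fold that of PRP8-WT in prp8-V1860D and 1.10-fold for prp8-V1860N. In prp8-V1860D, 6 of 256 introns had a higher log2 ratio to PRP8-WT than TAF14. In prp8-V1870N the share of TAF14 was 1.99-fold that of PRP8-WT.

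SRB2 had 329 annotated reads for prp8-V1860N, 170 for prp8-V1860D, 159 for each prp8-N1869D sample and 199 for prp8-V1870N, against 415 for PRP8-WT. The share was 169 per 1000000 (151 to 188) for prp8-V1860N, 92.3 (78.9 to 107) for prp8-V1860D, 160 and 144 for the first and second prp8-N1869D samples and 128 for prp8-V1870N, against 136 (124 to 150) for PRP8-WT. Only prp8-V1860N lay above the PRP8-WT interval without overlap and only prp8-V1860D lay below it. The share in prp8-V1860D was 0.677 of that in PRP8-WT. prp8-V1860N and prp8-V1860D, substitutions of the same residue, thus stood on opposite sides of PRP8-WT for SRB2, each in 1 library. The prp8-V1860N side was narrow, with a lower end of 150.99 beside the upper end of 150.17 for PRP8-WT. Counted at the annotated branch point alone, the log2 ratio of prp8-V1860N was −0.04 in place of 0.31. It was 0.28 over introns outside ribosomal protein genes, 0.22 with TMM factors and 0.12 over the short introns among these. Whether the intervals stay apart there was not tested.

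ARP9 had 942 annotated reads for prp8-V1860N, 823 for prp8-V1860D, 715 and 826 for the first and second prp8-N1869D samples and 719 for prp8-V1870N, against 1141 for PRP8-WT. The share was 483 per 1000000 for prp8-V1860N, 447 for prp8-V1860D, 720 and 747 for the first and second prp8-N1869D samples and 464 for prp8-V1870N, against 375 (354 to 397) for PRP8-WT. Every mutant sample was above the PRP8-WT interval. The share was 1.92-fold and 1.99-fold that of PRP8-WT for the first and second prp8-N1869D samples, and 1.29-fold, 1.19-fold and 1.24-fold for prp8-V1860N, prp8-V1860D and prp8-V1870N.

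**Figure D1:**
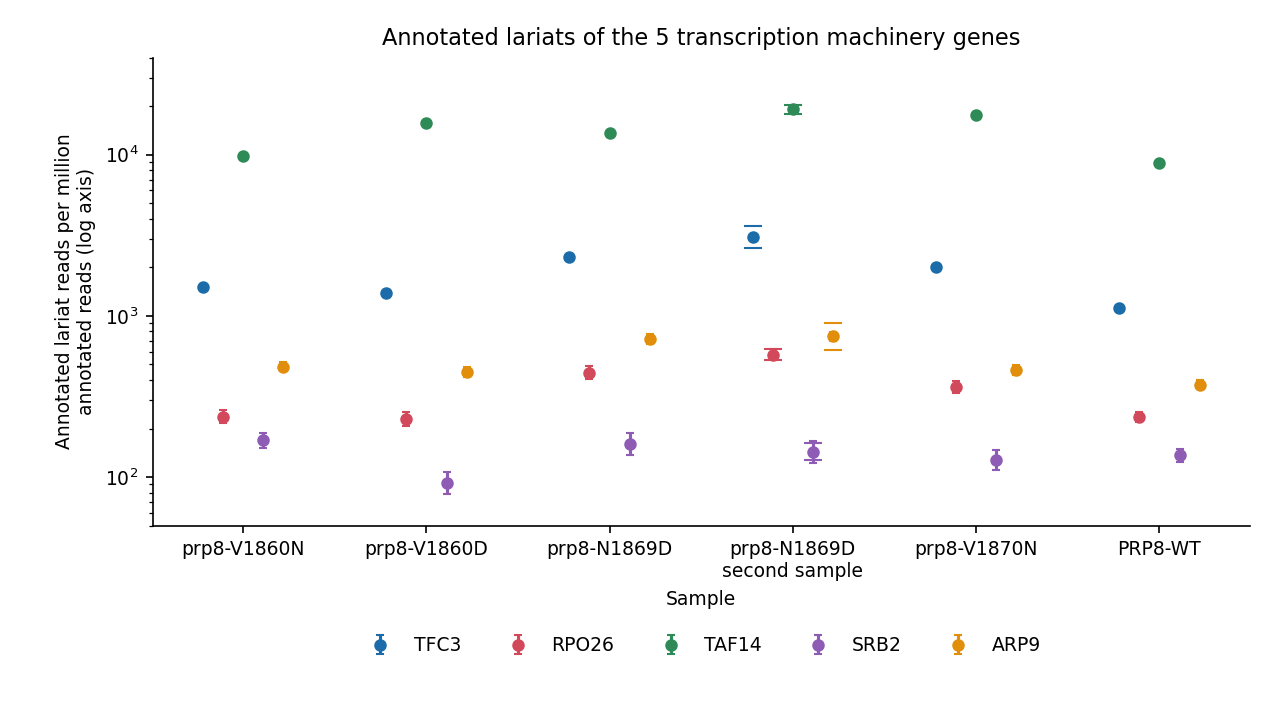
Annotated lariat reads per 1000000 annotated reads (vertical log axis) for each of the 5 genes in the 5 mutant samples and PRP8-WT; bars are exact 95% intervals and horizontal marks on the second prp8-N1869D sample are its 2 technical libraries. TAF14 lies between 8887 and 19203 in all samples, and SRB2, between 92.3 and 169, is the lowest of the 5 throughout.

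The only measure of spread between samples of 1 strain comes from prp8-N1869D. Over 254 introns with enough reads, its second and first samples differed by a median of 1.22-fold, and 95% of introns differed by less than 1.71-fold. The technical libraries differed by a median of 1.15-fold over 245 introns, with 95% under 1.56-fold. Between the second and first samples the fold was 1.29 for RPO26, 1.33 for TFC3, 1.41 for TAF14, 0.898 for SRB2 and 1.04 for ARP9, all within that range. The differences of RPO26, TFC3 and ARP9 from PRP8-WT exceeded 1.71-fold in both prp8-N1869D samples, and that of TAF14 in the second sample but not in the first. The share of all introns that differed from PRP8-WT by more than this was not counted. Introns outside ribosomal protein genes with lariats up to 100 nt had median folds of 2.10 in the first sample and 2.46 in the second. Over introns outside ribosomal protein genes, set against the same limit of 0.77 on the log2 scale, the ratios in the first sample were 0.60 for RPO26, 0.72 for TFC3 and 0.62 for ARP9, all below it. In the second sample RPO26 at 0.82 was above it, as was TFC3, with TAF14 at 0.65 and ARP9 at 0.53 below. For the other mutants no such range of their own exists.

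A share at least 2-fold above or below PRP8-WT was counted as a call, where the mutant sample and PRP8-WT together held 50 reads or more. No gene of the 5 reached it in prp8-V1860N, where 0.391% of all introns were called higher, or in prp8-V1860D, where 0.781% were. In the first prp8-N1869D sample TFC3 was called higher, which is 1 of 5 genes beside 26.1% of all introns. In the second, TFC3, RPO26 and TAF14 were called higher, 3 of 5 beside 31.4% of all introns. In prp8-V1870N none of the 5 was called higher, beside 10% of introns. None of the 5 was 2-fold lower in any sample, where the background was 0.0% for prp8-V1860N and for prp8-V1860D, 6.61% and 10.5% for the first and second prp8-N1869D samples and 0.772% for prp8-V1870N. The call of TFC3 in the first prp8-N1869D sample depended on the denominator, and no gene was called there over the reads of introns outside ribosomal protein genes. Over that denominator none of the 3 genes of the second sample was called either.

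The 5 genes therefore need to be read beside introns of their own kind. The comparison used introns outside ribosomal protein genes with a lariat of at most 100 nt, a limit chosen with earlier results known. This class includes the 5 genes themselves. In the first prp8-N1869D sample the median log2 ratio to PRP8-WT was 0.92 over the 5 genes, beside 1.07 over 113 such short introns, −0.15 over 41 introns with longer lariats and −0.35 over 103 ribosomal protein introns. In the second sample it was 1.11 over the 5 genes, beside 1.30, −0.14 and −0.35 for the same classes, with 114 short introns. In prp8-V1870N it was 0.62 over the 5 genes, beside 0.64 over 115 short introns. In prp8-V1860N and prp8-V1860D the medians of the 5 genes were 0.31 and 0.25, beside 0.30 and 0.25 over 112 short introns. The median of the 5 genes thus differed from that of the short introns by between −0.19 and 0.00 log2 units. For RPO26, TFC3 and ARP9 taken singly, the distance from the short-intron median ran between −0.34 and 0.19 log2 units over the 5 mutant samples. For TAF14 it ran wider, at −0.16 for prp8-V1860N, 0.57 for prp8-V1860D, −0.46 and −0.19 for the first and second prp8-N1869D samples and 0.35 for prp8-V1870N, and in prp8-V1860D 6 of 112 short introns had a higher ratio than TAF14.

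SRB2 lay below the short-intron median in 4 of the 5 mutant samples. Its log2 ratio to PRP8-WT minus the median of the short introns was 0.00 for prp8-V1860N, −0.81 for prp8-V1860D, −0.84 in the first and −1.22 in the second prp8-N1869D sample and −0.73 for prp8-V1870N. Only 2 of 112 short introns had a lower ratio than SRB2 for prp8-V1860D, 6 of 113 and 5 of 114 for the first and second prp8-N1869D samples and 5 of 115 for prp8-V1870N, whereas 58 of 112 did in prp8-V1860N. The short introns whose branch sequence is not TACTAAC, SRB2 left out, had median log2 ratios of 0.90 and 1.41 for the first and second prp8-N1869D samples and 0.66 for prp8-V1870N, so SRB2 at 0.23, 0.08 and −0.09 lay below these as well. That class was chosen after values were seen. The 2 other introns with TGCTAAC belong to ribosomal protein genes and have lariats of 428 nt (RPL7A) and 387 nt (RPL7B). They had log2 ratios of 0.54 and 0.64 (RPL7A) and 0.10 and −0.34 (RPL7B) for the first and second prp8-N1869D samples.

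**Figure D2:**
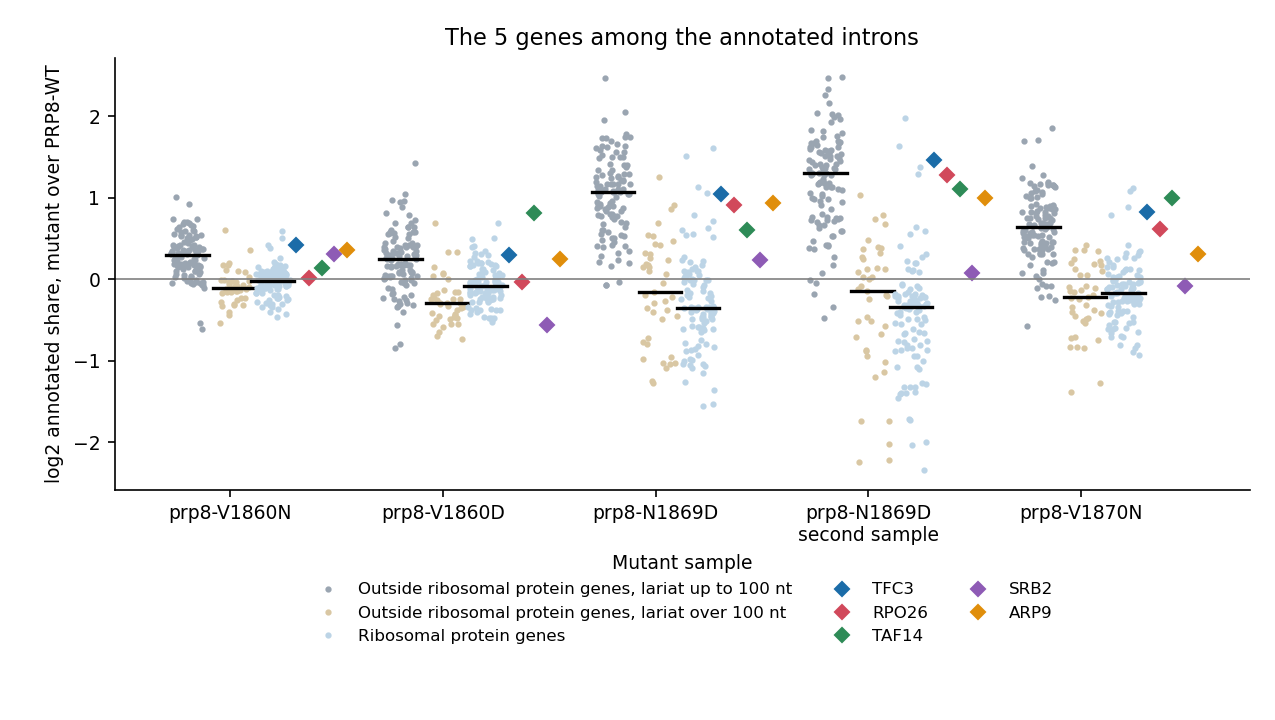
Log2 ratio of the annotated share, mutant over PRP8-WT, for each annotated intron with at least 50 reads (small points, by class, with the class median as a bar) and for the 5 genes (diamonds). In the second prp8-N1869D sample TFC3, RPO26, TAF14 and ARP9 lie between 0.99 and 1.46, beside a short-intron median of 1.30, and SRB2 lies at 0.08.

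Some other genes of transcription and chromatin with an intron, picked by name, were summarised as a list: NHP6B, GCR1, IWR1, NCB2, SUS1, VPS75, ACT1 and HMRA1. The list is not complete and leaves out KIN28, MAF1 and HPC2, for example, so its medians and counts depend on the choice. The 8 listed genes have 10 introns, of which 8 held 50 reads or more in each mutant sample plus PRP8-WT. Their median log2 ratio to PRP8-WT was 0.49 for prp8-V1860N, 0.45 for prp8-V1860D, 0.60 and 0.81 for the first and second prp8-N1869D samples and 0.59 for prp8-V1870N. In the same order, it was 0.07, 0.01, 0.27, 0.21 and 0.13 over all introns. Over the short introns outside ribosomal protein genes it was 0.30, 0.25, 1.07, 1.30 and 0.64. The list mixes short and long lariats. Of the 8 introns, 3 and 4 were at least 2-fold higher for the first and second prp8-N1869D samples and 3 for prp8-V1870N, and 1 was 2-fold lower, in the second prp8-N1869D sample. The background among all introns was 26.1%, 31.4% and 10% for the higher calls in that order, and 10.5% for the lower one. SUS1, which encodes a subunit of the SAGA co-activator and has a pair of introns, had log2 ratios of 1.53 and 1.08 for its first and second introns in the first prp8-N1869D sample. NHP6B, which encodes an HMG-box chromatin protein and has a lariat of 344 nt, was the intron called lower, at −2.25 in the second sample. NCB2, which encodes a subunit of the NC2 repressor of the TATA-binding protein and has a short lariat of 65 nt, stood at 0.40 and 0.18 for the first and second prp8-N1869D samples, also below the short-intron median.

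The pattern of each gene over the 6 samples was set beside those of 240 introns with at least 50 reads in every sample, by Pearson correlation of log2 shares. With 6 samples that share libraries and a denominator, this is a description only. TFC3 was most like GIM5 (r = 0.996), MAF1 (0.995) and MCM21 (0.995), and RPO26 most like HNT2 (0.995), HPC2 (0.991) and UBC9 (0.990). TAF14 was most like YBR062C (0.997), NBL1 (0.984) and PRE3 (0.969), and ARP9 most like QCR10 (0.982), YPR063C (0.981) and TMH18 (0.981). SRB2 had less close neighbours, with YSC84 (0.954), SEC27 (0.871) and NCB2 (0.870). Among the 5 genes themselves, TFC3 and RPO26 gave 0.96, TFC3 and ARP9 0.92 and RPO26 and ARP9 0.88, while SRB2 gave between −0.36 and 0.41 with the other genes.

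Aberrant 5′ splice sites are those that lie over 5 but under 1000 nt away from the annotated site and whose branch is within 2 nt of the annotated one. Pooled over all 7 libraries, TFC3 had the highest share of the 5 genes, although in the second prp8-N1869D sample ARP9 was higher, at 0.242% from 2 reads. In the pooled libraries 0.343% of its aberrant plus annotated reads were aberrant, beside a median of 0.0469% over 265 introns, 72 of which had a higher share than TFC3. TFC3 had 24 aberrant reads for prp8-V1860N, 10 for prp8-V1860D, 3 for each prp8-N1869D sample and 2 for prp8-V1870N, against 19 for PRP8-WT. The shares were 0.810% (0.520 to 1.20) for prp8-V1860N, 0.390% (0.187 to 0.717) for prp8-V1860D, 0.130% (0.0268 to 0.380) for the first prp8-N1869D sample, 0.0877% (0.0181 to 0.256) for its second and 0.0645% (0.00781 to 0.233) for prp8-V1870N, against 0.553% (0.333 to 0.862) for PRP8-WT. The samples of prp8-N1869D and prp8-V1870N thus had 2 or 3 such reads each, while prp8-V1860N, prp8-V1860D and PRP8-WT had 10 or more.

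TFC3 was the only one of the 5 whose interval lay apart from PRP8-WT, on the lower side in the second prp8-N1869D sample and in prp8-V1870N. Among all introns, 3.85% were apart and lower in that sample and 1.91% for prp8-V1870N. In the first prp8-N1869D sample the intervals overlapped, where 1.54% of introns were lower. In prp8-V1860N and prp8-V1860D 4.25% and 7.72% of introns were lower and none of the 5 was. No gene of the 5 was apart and higher, where the background was 3.09% for prp8-V1860N, 2.32% for prp8-V1860D, 5.02% and 7.31% for the first and second prp8-N1869D samples and 5.34% for prp8-V1870N. With the second technical library alone, which holds all 3 aberrant reads of the second prp8-N1869D sample, the TFC3 interval overlapped that of PRP8-WT. Both lower calls also ended when only reads at the annotated branch point were counted, with shares of 0.156% in the second prp8-N1869D sample and 0.107% for prp8-V1870N, and when all other 5′ splice sites were counted, with 0.495% and 0.800%. The other 4 genes had almost none of these reads. RPO26 and SRB2 had 0 in every sample, which allows shares of up to 0.419% and 0.723% for PRP8-WT. TAF14 had 1 read for prp8-V1860N and 2 for PRP8-WT, and ARP9 had 2 in the second prp8-N1869D sample and 1 for prp8-V1860D.

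All 5 aberrant sites of TFC3 lie upstream of the annotated site, and 36 and 20 of their 61 reads fall on a pair of them in the first exon. They are printed on the minus strand of build R64 from RefSeq, with the 6 bases that would open the intron in capitals.
TFC3 site 67 nt upstream, chrI:151152-151169: aaaatgGTACTGacgatt
TFC3 site 31 nt upstream, chrI:151116-151133: caaataGTGTCTgataaa
The first of these sits directly after the start codon, which ends the lower-case stretch before it. It had 15 reads for prp8-V1860N, 5 for prp8-V1860D, 2 and 1 for the first and second prp8-N1869D samples and 1 for prp8-V1870N, against 12 for PRP8-WT. The site 31 nt upstream had 8 reads for prp8-V1860N, 4 for prp8-V1860D, 0 and 2 for the first and second prp8-N1869D samples and 1 for prp8-V1870N, against 5 for PRP8-WT. Both sites open with GT, and both had most of their reads for prp8-V1860N and PRP8-WT.

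Sites shifted by 1 to 5 nt from the annotated 5′ splice site were counted separately, because the authors' definition of an aberrant site leaves them out. In TAF14 their shares were 0.438% (0.349 to 0.541) for prp8-V1860N, 0.414% (0.343 to 0.494) for prp8-V1860D, 0.303% for the first prp8-N1869D sample, 0.249% for its second and 0.313% for prp8-V1870N, against 0.255% (0.198 to 0.322) for PRP8-WT. TAF14 was apart and higher in prp8-V1860N and prp8-V1860D, where 4.3% and 6.25% of all introns were. No other gene of the 5 was apart and higher there, and none was for the first and second prp8-N1869D samples, with backgrounds of 8.95% and 6.59%, or in prp8-V1870N, with 8.11%. The start of the intron holds another GT 4 nt inside, the last bases of GTATGT, with which 217 of 280 introns open. It is shown here on the plus strand of build R64 with the 6 bases of that inner site in capitals.
TAF14 start of gene and intron, chrXVI:305298-305318: atggtagctgtatGTTCGTta
The inner site had 34 reads for prp8-V1860N, 50 for prp8-V1860D, 14 and 15 for the first and second prp8-N1869D samples and 19 for prp8-V1870N, against 10 for PRP8-WT. Of these plus annotated reads it took 0.178% (0.123 to 0.248) for prp8-V1860N and 0.173% (0.128 to 0.228) for prp8-V1860D, against 0.0370% (0.0177 to 0.0680) for PRP8-WT. The shares for the first and second prp8-N1869D samples, 0.104% and 0.0706%, and in prp8-V1870N, 0.0692%, overlapped PRP8-WT. The other well-read position, 2 nt before the annotated site with CTGTAT, had 50, 70, 27, 38 and 65 reads in the mutant samples in the same order, against 59 for PRP8-WT, and its share was apart from PRP8-WT in none of them. Of these positions in TAF14, only the inner GT was thus apart from PRP8-WT in prp8-V1860N and prp8-V1860D. The share of all introns apart at the inner GT alone was not counted. The position on the other side was slightly higher there too, at 0.261% and 0.242%, against 0.218% for PRP8-WT, with overlapping intervals. SRB2, with few reads, had 9, 1, 4, 6 and 5 shifted reads in the mutant samples in that order, against 10 for PRP8-WT. TFC3 had 26, 16, 13, 14 and 23, against 19. Pooled over all 7 libraries, SRB2 had the highest shifted share of the 5 genes, at 2.39%, with 50 of 263 introns above it. The pooled share was 0.622% for TFC3, 0.329% for TAF14, 0.247% for RPO26 and 0.0387% for ARP9, beside a median of 0.387% over introns.

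Alternative branch points are those joined to the annotated 5′ splice site at over 2 nt from the annotated branch point, up to 1000 nt past the 5′ splice site. TFC3 again had the highest share, at 1.59% over all libraries, with 47 of 265 introns above it. TAF14 had 0.430%, RPO26 0.216% and ARP9 0.0580%, and SRB2 had no such read, beside a median of 0.465% over introns. TFC3 had 32 reads for prp8-V1860N, 29 for prp8-V1860D, 60 and 65 for the first and second prp8-N1869D samples and 48 for prp8-V1870N, against 52 for PRP8-WT. Its share was 1.08% for prp8-V1860N, 1.12% for prp8-V1860D, 2.54% (1.94 to 3.26) for the first prp8-N1869D sample, 1.87% (1.44 to 2.37) for its second and 1.52% for prp8-V1870N, against 1.50% (1.12 to 1.96) for PRP8-WT. The highest value, in the first prp8-N1869D sample, just overlapped PRP8-WT. No gene of the 5 was apart from PRP8-WT in any mutant sample. The background was 0.775% higher and 1.55% lower in prp8-V1860N, 1.94% and 5.43% for prp8-V1860D, 5.81% and 1.94% in the first prp8-N1869D sample, 8.11% and 3.86% in the second, and 6.54% and 2.31% for prp8-V1870N. With branch points more than 5 nt away, TFC3 was apart and higher in the first prp8-N1869D sample. The share of all introns apart under that definition was not counted.

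**Figure D3:**
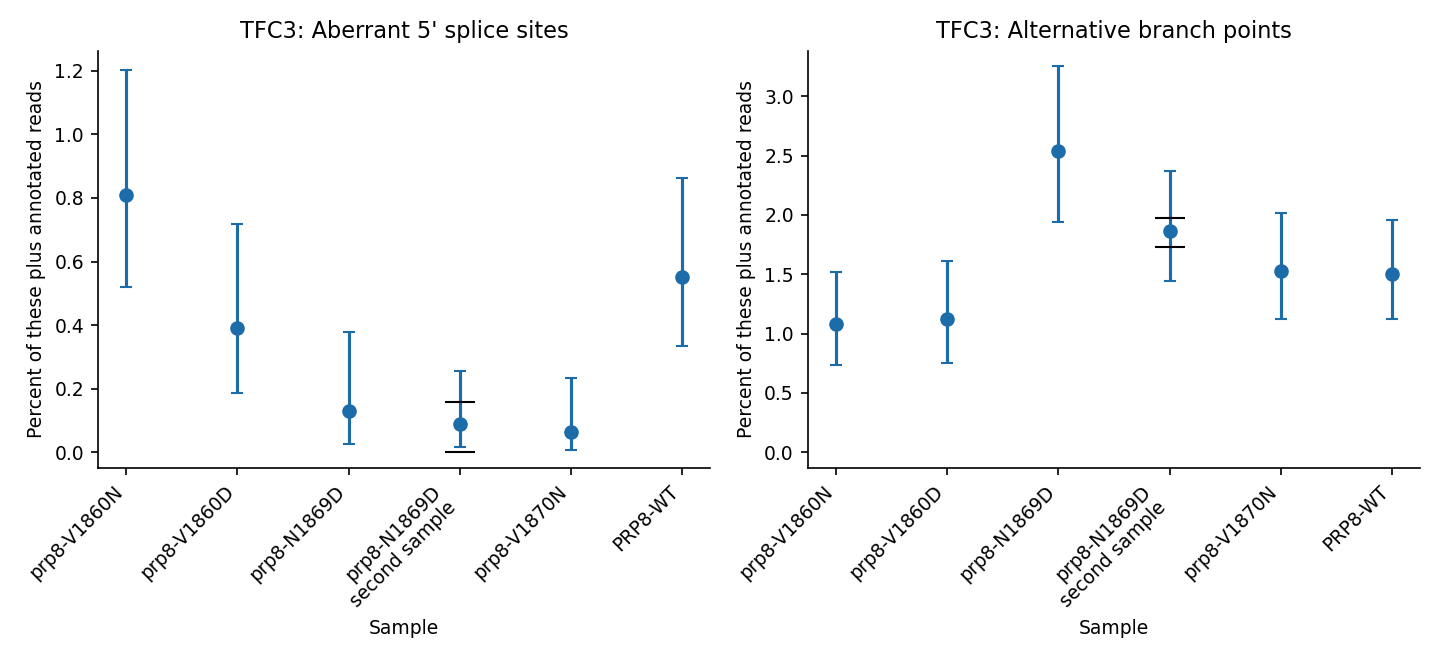
Percent of TFC3 reads at aberrant 5′ splice sites (left) and at alternative branch points (right), each of these plus annotated reads, in the mutant samples and PRP8-WT; bars are exact 95% intervals and marks are the technical libraries. Aberrant sites took 0.0645% to 0.130% in prp8-N1869D and prp8-V1870N samples, against 0.553% for PRP8-WT, while alternative branch points were highest, at 2.54%, in the first prp8-N1869D sample.

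The alternative branch points of TFC3 fell mostly upstream of the annotated one, inside the intron. The stretch that holds them is printed on the minus strand, with the 6 leading alternative positions and, last, the annotated branch point in capitals.
TFC3 branch region, chrI:151016-151045: ctATatTgTgaaAgattatttActaAcgac
The leading positions were 22 nt upstream, with 81 reads over all libraries, 19 nt upstream with 41, 4 nt upstream with 35, 23 nt upstream with 33, 13 nt upstream with 29 and 17 nt upstream with 20. The position 23 nt upstream is an A and had 2 reads for prp8-V1860N, 3 for prp8-V1860D, 13 and 7 for the first and second prp8-N1869D samples and 7 for prp8-V1870N, against 1 for PRP8-WT. The positions 22 and 19 nt upstream are T. Between 23 and 13 nt upstream, a window chosen after values were seen, the share was 0.743% for prp8-V1860N, 0.739% for prp8-V1860D, 2.08% (1.55 to 2.75) for the first prp8-N1869D sample, 1.30% (0.949 to 1.73) for its second and 1.24% for prp8-V1870N, against 0.985% (0.683 to 1.37) for PRP8-WT. There the first prp8-N1869D sample lay above PRP8-WT without overlap, and the second did not. No share over all introns was counted for such a window.

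TAF14 had 72 alternative branch reads for prp8-V1860N, 117 for prp8-V1860D, 53 and 90 for the first and second prp8-N1869D samples and 131 for prp8-V1870N, against 129 for PRP8-WT. Its share stayed between 0.375% and 0.475% in all 6 samples. The positions 11 and 12 nt upstream of the annotated branch point held 236 and 104 reads over all libraries, followed by 3 nt upstream with 61, 5 nt upstream with 46, 4 nt upstream with 43 and 4 nt downstream with 33. RPO26 had 7 such reads in all and ARP9 had 3. In SRB2 the count of 0 allows a share of up to 0.723% for PRP8-WT and 1.89% in either prp8-N1869D sample, so a difference was not detectable at this depth.

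**Figure D4:**
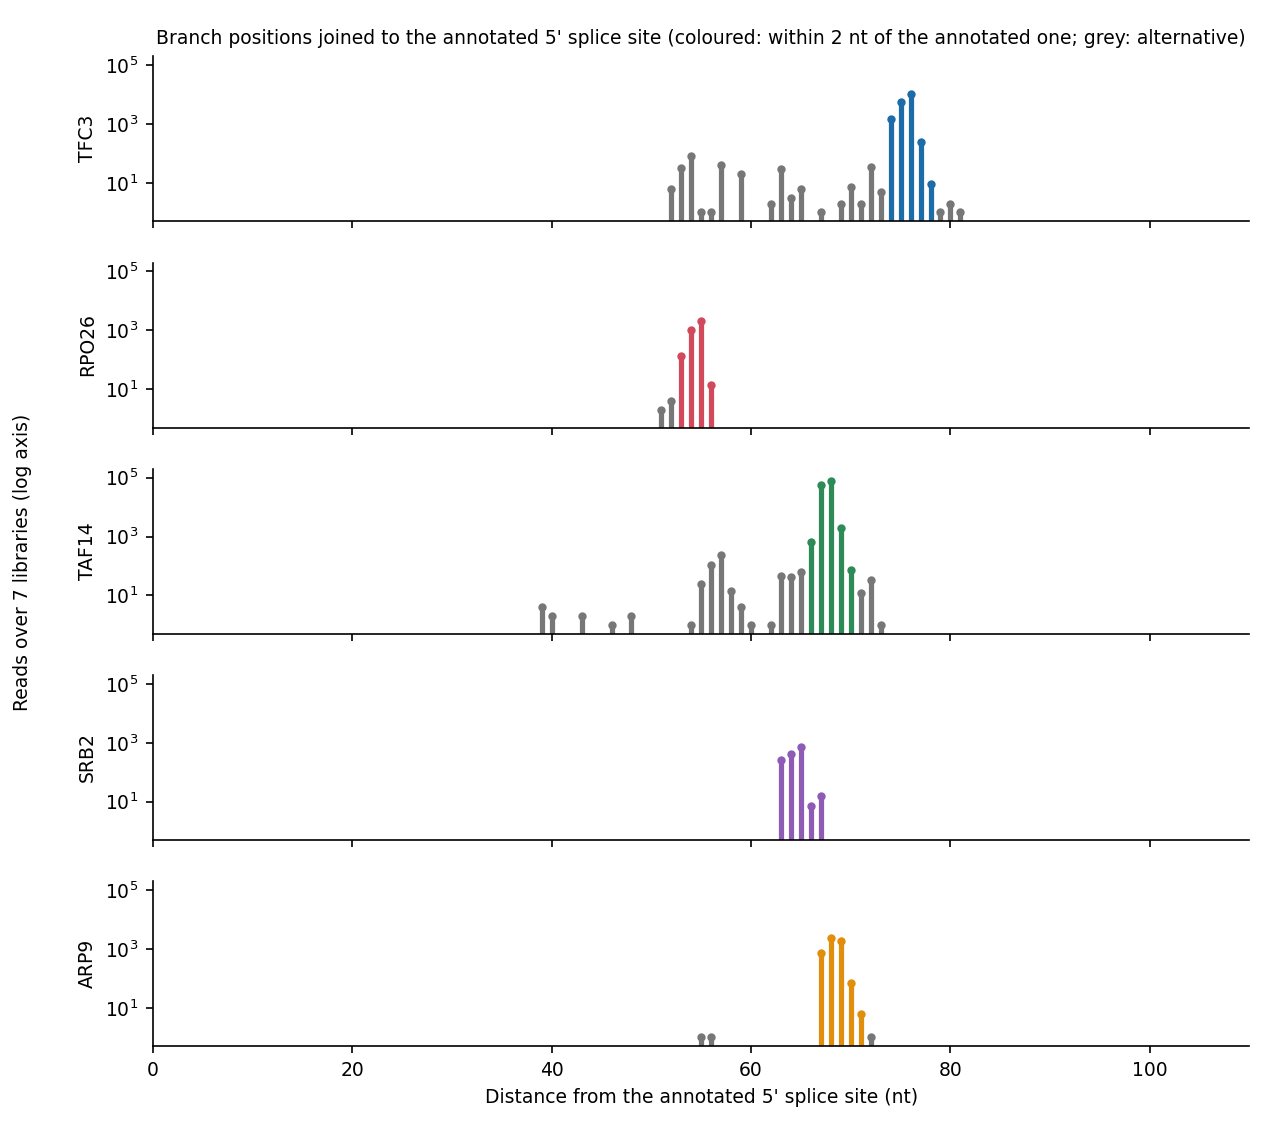
Reads over 7 libraries (vertical log axis) at each branch position joined to the annotated 5′ splice site, by distance from that site in nt, for each gene; coloured stems lie within 2 nt of the annotated branch point and grey stems are alternative ones. TFC3 and TAF14 carry grey stems well upstream of the main group, led by 81 and 236 reads, and SRB2 carries none.

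Within the annotated reads, the branch was read at the annotated base or 1 to 2 nt beside it, and the split differed between the genes. ARP9 had its peak 1 nt upstream, with 45.4% for prp8-V1860N, 46.7% for prp8-V1860D, 48.5% for the first prp8-N1869D sample, 51.3% for its second and 49.7% for prp8-V1870N, against 44.9% for PRP8-WT. The other 4 genes had their peak at the annotated base in all samples. In PRP8-WT that base held 65.6% of the reads of RPO26, 59.8% of TFC3, 57.8% of TAF14 and 58.3% of SRB2, but 39.5% of ARP9, beside a median of 47.2% over 249 introns.

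All 5 genes had a higher share 1 nt upstream in both prp8-N1869D samples than in PRP8-WT. All 5 were also higher in prp8-V1860N, 4 were in prp8-V1870N and 1 was in prp8-V1860D. Of all introns, 59.0%, 51.0% and 23.0% were higher in these mutants in that order. In prp8-V1870N the median difference was 4.78 percentage points over the 5 genes, beside 0.0994 over all introns. TFC3 had 35.3% (33.3 to 37.3) and 35.4% (33.8 to 37.1) for the first and second prp8-N1869D samples, against 29.8% (28.3 to 31.3) for PRP8-WT. TAF14 had 42.0% and 42.2%, against 40.1% for PRP8-WT. The intervals of TFC3 and TAF14 were apart and higher in the first sample, where 24.5% of introns were, and those of TFC3, TAF14 and ARP9 in the second, where 24.8% were. With 1 technical library of the second sample alone, TAF14 was apart for the first library, and TFC3 and ARP9 were for the second. None of the 5 was apart and higher in prp8-V1860N, prp8-V1860D or prp8-V1870N, with backgrounds of 9.38%, 1.56% and 8.88%. In the first and second prp8-N1869D samples, 68.9% and 69.8% of all introns had a higher share. Median differences there were 1.57 and 1.49 percentage points, beside 3.71 and 5.65 over the 5 genes. The shift in prp8-N1869D is thus shared by most introns. The share of the 5 genes that was apart there, 2 and 3 of 5, is given beside that background without a test.

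SRB2, the intron with TGCTAAC, differed at another position. Reads 2 nt upstream of its annotated branch point were 24.6% (20.1 to 29.6) for prp8-V1860N, 24.1% (17.9 to 31.3) for prp8-V1860D, 18.9% for the first prp8-N1869D sample, 17.6% for its second and 17.1% for prp8-V1870N, against 12.5% (9.50 to 16.1) for PRP8-WT. prp8-V1860N and prp8-V1860D were apart from PRP8-WT, and the other samples overlapped it. The background of introns apart and higher was 0.781% for prp8-V1860N and 6.25% for prp8-V1860D, and 3.5%, 6.59% and 12% for the first and second prp8-N1869D samples and prp8-V1870N, where none of the 5 was. At the annotated base SRB2 had 45.6% (40.1 to 51.1) for prp8-V1860N, where 7.81% of introns were apart and lower, and 54.7% for prp8-V1860D, against 58.3% (53.4 to 63.1) for PRP8-WT. Reads at the annotated base were also apart and lower for TFC3, TAF14 and SRB2 in the first prp8-N1869D sample (19.5% of introns), for TFC3, TAF14 and ARP9 in the second (20.9%) and for RPO26 in prp8-V1870N (10.4%), and for none of the 5 in prp8-V1860D (1.17%). TAF14 was apart and higher there in prp8-V1860D, with 58.9% (58.4 to 59.5), against 57.8% (57.2 to 58.3) for PRP8-WT, beside 25% of introns. None of the 5 was higher in the other mutant samples, where 3.52% of introns were for prp8-V1860N, 3.5% and 5.04% for the first and second prp8-N1869D samples and 5.41% for prp8-V1870N.

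**Figure D5:**
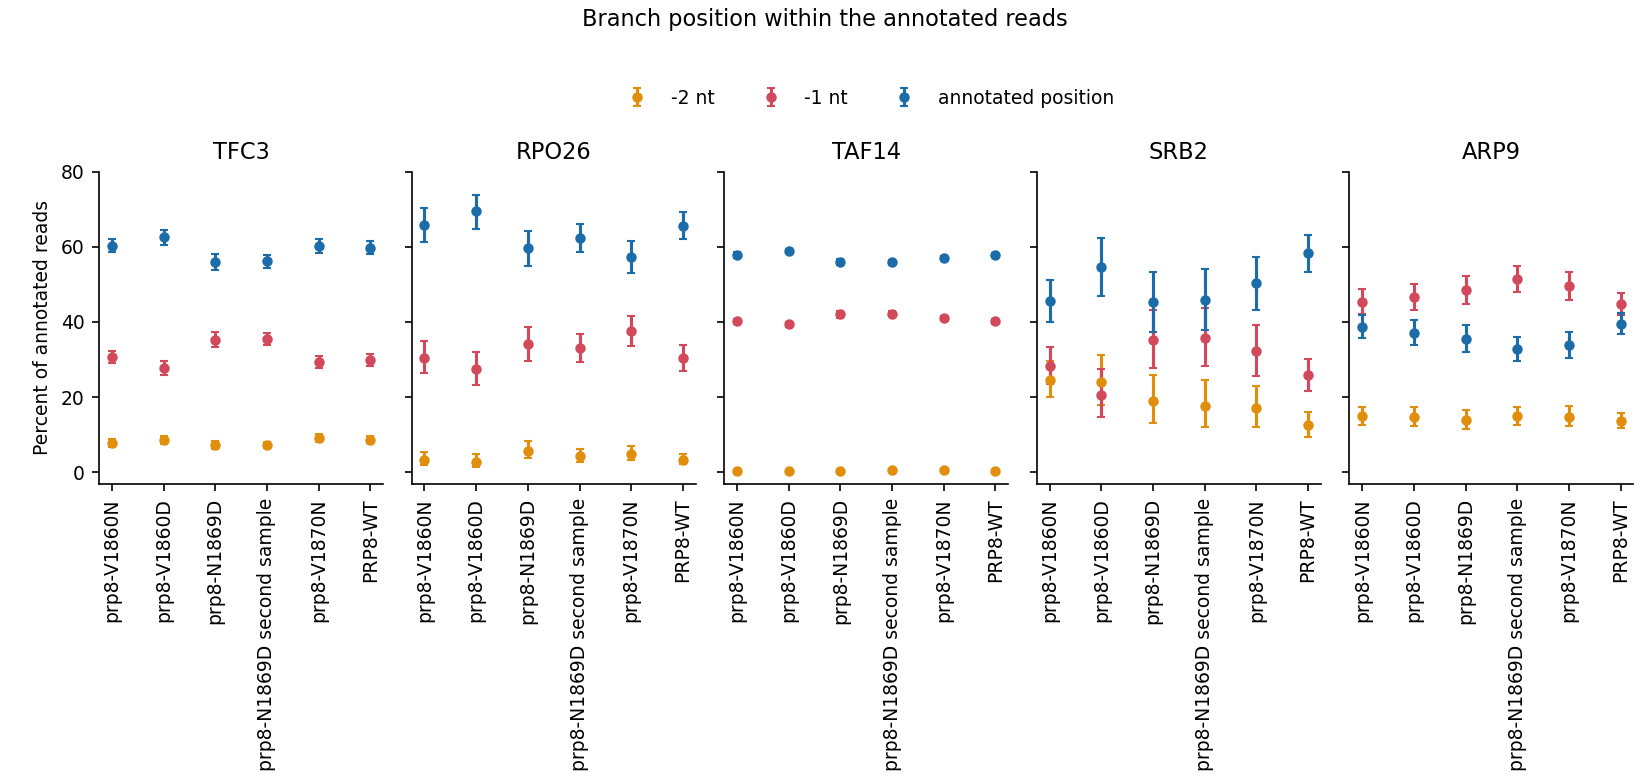
Percent of each gene's annotated reads whose branch was read at the annotated base, 1 nt upstream or 2 nt upstream, in the mutant samples and PRP8-WT, with exact 95% intervals. ARP9 alone peaks 1 nt upstream, and SRB2 has 24.6% and 24.1% 2 nt upstream in prp8-V1860N and prp8-V1860D, against 12.5% for PRP8-WT.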

How the data were processed

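The deposited values are raw counts of reads crossing a branch, which the authors filtered and tallied, per the file headers, for each combination of a 5′ splice site with a branch position and for each annotated intron. The submitters' processing notes name Trimmomatic, Bowtie2 and build R64, while versions, filters and the assignment of strand were not given in the sources used here. Groups came from the labels, and counts of the 2 technical libraries (second prp8-N1869D sample) were added up. The table of introns equalled the sums over matching pairs for 280 of 280 introns, and 279 of 280 introns opened with GT in the RefSeq sequence.

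The 5 genes, the comparison lists and the length classes were chosen with earlier results of these data known. Log2 ratios used shares of annotated reads with a pseudocount of 0.5 reads. A share within an intron counted as apart when its exact 95% interval did not overlap that of PRP8-WT. Introns needed 50 reads in the mutant sample plus PRP8-WT. Reads carry no molecular identifiers, so intervals, and the limits of 3 counts used where none were seen, cover counting error only. The sites and positions named as leading had 5 reads or more over all libraries, but not every position with that many reads is named. Alternatives were other denominators and scalings, pseudocounts, read minimums and site definitions. The calculations were tested on simulated data. Scripts ran in Python 3.11.15 (scipy 1.17.1, numpy 2.4.6, matplotlib 3.10.9, pandas 2.3.3). DESeq2 1.42.0 and edgeR 4.0.16 under R 4.3.3 supplied scaling factors for alternatives and no test.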

Additional observations from a re-analysis of the deposited data

How the results depend on the processing

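With 1 library per strain, no result here has a replicate check outside prp8-N1869D, and low counts limit SRB2 and RPO26 most. Counts of genes at least 2-fold higher were the most sensitive. In the first prp8-N1869D sample the count was 1, and it was 0 over all lariat reads, over introns outside ribosomal protein genes, over the short ones among these, with TMM or DESeq2 factors, and with the annotated branch point alone. In the second it was 3, and it was 0 over introns outside ribosomal protein genes, 0 over the short ones, 1 with DESeq2 factors, and 3 to 4 without either technical library. The median log2 ratio of all introns shifted by −0.32 and −0.46 in the first and second prp8-N1869D samples over introns outside ribosomal protein genes, and by −0.73 and −1.04 over the short ones. Counting all other 5′ splice sites made 1 gene apart and higher in prp8-V1860N and 1 in prp8-V1860D, against 0 each, and 0 apart and lower in the second prp8-N1869D sample and 0 in prp8-V1870N, against 1 each. The annotated branch point alone also gave 0 lower in both of these samples. Leaving out 1 technical library gave 0 to 1 lower in that second sample, with 0 without the first library, and 1 to 2 genes, against 3, with a higher share 1 nt upstream of the branch. Alternative branch points over 5 nt away made 1 gene apart and higher in the first prp8-N1869D sample, against 0. Of 260 log2 ratios recomputed for the 5 genes, 27 had the other sign, and no called ratio did. The cause was not tested for any of these. The denominator of short introns and the technical libraries' share 1 nt upstream were chosen after seeing the data. No paired analysis was possible because the groups share fewer than 2 replicate numbers.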

Other observations

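TAF14 also joined its annotated 5′ splice site to a place far downstream, between the genes TBF1 and HHO1, mostly 3357 and 3359 nt past the annotated branch point. The reads at the 5 positions within 10 nt of the most-read one, 3359 nt past it, numbered 9 for prp8-V1860N, 30 for prp8-V1860D, 6 for the first prp8-N1869D sample, 29 for its second and 29 for prp8-V1870N, against 16 for PRP8-WT. As shares of these plus annotated reads they were 0.0471%, 0.104%, 0.0445%, 0.136% and 0.106% in the mutant samples in that order, against 0.0591% for PRP8-WT, and every mutant interval overlapped that of PRP8-WT. The sequence there shares a run of 9 bases with the annotated branch region, in capitals below on the plus strand of build R64 from RefSeq. Both stretches also hold TACTAA on this strand, as do 235 of 280 windows of 30 nt around annotated branch points (83.9%). The annotated branch point is the last A of its TACTAA, but the distant reads fell mostly before theirs. The last A of the distant TACTAA, 3366 nt past the annotated branch point, had 1 read over all libraries. The positions 3357 and 3359 nt past it had 46 and 64.
TAF14 distant position, chrXVI:308714-308743: aaaatttagAAATAATACaaaatactaata
TAF14 annotated branch region, chrXVI:305355-305384: tgttagctaAAATAATACtaacttacgact

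Pairs on the opposite strand with ends swapped, within 10 nt of an annotated intron, were common for TFC3 and rare for RPO26 and SRB2. For TFC3 they made up 8.89% of these plus annotated reads for prp8-V1860N, 9.09% for prp8-V1860D, 7.21% for the first prp8-N1869D sample, 7.70% for its second and 8.98% for prp8-V1870N, against 9.02% for PRP8-WT. The median over 249 introns was 3.68% for PRP8-WT, with 43 introns above TFC3 and 237 above RPO26. TAF14 ran between 2.78% and 3.06% over the 6 samples. RPO26 had 2, 2, 0, 4 and 0 such reads in the mutant samples in the same order, against 2 for PRP8-WT, and SRB2 had 1, 1, 1, 0 and 0, against 2. The sources used here did not say how strand was assigned to a read, so whether such pairs are lariats cannot be told from these values.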
